A study of Homo sapiens with 60 samples.

Results

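Transcript levels of 8 human genes of fatty acid use and storage were followed in SW1783 cells, an established astrocytoma line, after 24 h with ethanol extracts of 4 medicinal herbs and 4 herbal formulas. The genes were ANGPTL4, PLIN2, CPT1A, PDK4, HILPDA, ACADVL, SLC25A20 and PPARD, 8 of the 60675 gene identifiers in the table and of the 19366 that passed the filter on low counts, which all 8 did. They are PPAR-type lipid genes, chosen by their measured levels, because ANGPTL4, PLIN2 and CPT1A were high with several extracts in these same libraries. The values of those 3 genes are therefore a description and were not tested. The other 5 genes were tested, and their counts of calls are read against the share of all genes called.

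The 60 libraries fell into 25 groups. Vehicle cells received 0.1% DMSO in L-15 medium (n = 3), and the series text gives a higher DMSO share for the control. Polygalae Radix was given at 1.2, 6 and 30 µg/mL and Aucklandiae Radix at 6.4, 32 and 160 µg/mL (n = 2 per dose each). Menthae Herba, Saposhnikoviae Radix and the formulas Saengmaek-san and Guibi-tang were given at 20, 100 and 500 µg/mL (n = 3 per dose each). The formula Soyo-san had the same doses with n = 2 each, and Okbyeongpung-san had them with 1 library each. These doses are called low, medium and high. The high dose was 500 µg/mL, or the IC20 where that was lower, so the high doses were not equal in mass. All groups share 1 cell line and the labels do not say whether replicates were separate cultures, so p-values measure the spread between these samples, which may be technical.

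Fatty acids and their derivatives bind the PPAR family of nuclear receptors, of which PPARD encodes the widely expressed PPAR delta. Target genes of these receptors send fatty acids into mitochondria through the carnitine shuttle (CPT1A, SLC25A20), oxidise them there (ACADVL), hold pyruvate back from oxidation (PDK4) and coat the droplets in which surplus lipid is stored (PLIN2). ANGPTL4 is a secreted inhibitor of lipoprotein lipase, and HILPDA is a droplet protein that restrains the lipase ATGL. Several of these genes also answer to low oxygen, glucocorticoids or cellular stress. In the brain, astrocytes rather than neurons are known as the main site of fatty acid oxidation and of lipid droplets.

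Library totals ran from 19031094 to 37686975 counts. The library names placed Polygalae Radix and Aucklandiae Radix in 1 set, Menthae Herba and Saposhnikoviae Radix in another, Saengmaek-san and Guibi-tang in the next, and Soyo-san and Okbyeongpung-san in the last, with vehicle in a set of its own. Set and extract cannot be told apart against vehicle, while high against low dose lies within a set. A tilt toward short transcripts marked 4 libraries, with slopes of log2 deviation from vehicle on log2 transcript length between -0.287 and -0.192, against -0.116 to 0.077 in the rest. These, called tilted here, were replicate 3 of Menthae Herba at its high dose, a high-dose (2) and a low-dose (3) replicate of Saposhnikoviae Radix, and the only high-dose Okbyeongpung-san library. Of the markers of astrocytoma and mesenchymal-like glia, VIM averaged 5212 CPM (counts scaled by TMM to a common library size) and CD44 2887 in vehicle. CHI3L1 was at 773, SOX9 at 86.2, SLC1A3 at 32.5 and NES at 7.62, whereas GFAP was at 0.179, S100B at 0.152 and AQP4 at 0. Of the macrophage markers 4 of 7 passed the filter, with CD68 at 187 and PTPRC at 10.4 CPM in vehicle. Adipocyte markers were near 0 throughout, with 0 of 7 passing the filter, a summed level of at most 0.288 CPM in any library and RETN at 0 in all.

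ANGPTL4 (ENSG00000167772) lies on chromosome 19 from 8363289 to 8374373, PLIN2 (ENSG00000147872) on chromosome 9 from 19108375 to 19149290, and CPT1A (ENSG00000110090) on chromosome 11 from 68754620 to 68844410. PDK4 (ENSG00000004799) lies on chromosome 7 from 95583499 to 95596491 and HILPDA (ENSG00000135245) on the same chromosome from 128455849 to 128458418. ACADVL (ENSG00000072778) lies on chromosome 17 from 7217125 to 7225273, SLC25A20 (ENSG00000178537) on chromosome 3 from 48856931 to 48898993, and PPARD (ENSG00000112033) on chromosome 6 from 35342558 to 35428191. All positions are GRCh38 from GENCODE, and all 8 genes are protein coding. ANGPTL4 overlaps the antisense gene RAB11B-AS1, which averaged 20.4 counts in vehicle, and ACADVL overlaps DLG4 on the opposite strand, which averaged 865.7. Their reads may not be separable, since no strand setting of the counting is given in the sources used here. HILPDA shares its strand with HILPDA-AS1, which averaged 6.0 counts in vehicle.

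The RefSeq promoter table (GRCh38.p14) matched 7 of the 8 genes. Below are the stretches upstream of the start of ANGPTL4 and PLIN2, whose levels ran together, and of CPT1A and PDK4, whose levels were less close to theirs, each stopped where an annotated exon begins. The ANGPTL4 and PLIN2 stretches lie inside the annotated spans of these genes, which begin farther upstream. They cover chr19:8363905-8364150 on the plus strand and, on the minus strand, chr9:19127577-19127742, chr11:68844411-68844527 and chr7:95596517-95596766. Capitals mark the letters ACGTG or GCGTG on either strand, the cores of hypoxia response elements.
ANGPTL4: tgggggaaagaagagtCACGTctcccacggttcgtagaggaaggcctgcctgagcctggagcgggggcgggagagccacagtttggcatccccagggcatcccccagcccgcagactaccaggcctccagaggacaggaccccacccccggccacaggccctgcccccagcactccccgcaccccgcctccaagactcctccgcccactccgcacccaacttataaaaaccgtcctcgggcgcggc
PLIN2: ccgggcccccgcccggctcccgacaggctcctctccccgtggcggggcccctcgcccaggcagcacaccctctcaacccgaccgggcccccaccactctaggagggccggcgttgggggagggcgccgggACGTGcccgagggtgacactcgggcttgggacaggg
CPT1A: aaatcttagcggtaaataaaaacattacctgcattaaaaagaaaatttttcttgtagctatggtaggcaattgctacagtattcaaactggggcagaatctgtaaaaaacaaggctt
PDK4: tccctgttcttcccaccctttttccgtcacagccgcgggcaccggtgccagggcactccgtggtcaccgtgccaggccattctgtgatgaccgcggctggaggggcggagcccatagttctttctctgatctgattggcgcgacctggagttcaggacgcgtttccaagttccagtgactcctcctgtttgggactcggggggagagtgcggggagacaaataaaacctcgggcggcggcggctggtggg
In the whole window of 250 bases before the start, ANGPTL4 held ACGTG once, from 234 bases before the start on the opposite strand. PLIN2 held it from 120, 69 and 68 bases before the start, the last pair being the same palindrome read on both strands, and GCGTG from 85. Neither motif was found in CPT1A or PDK4. ACADVL held both at its second listed start, SLC25A20 held GCGTG once and PPARD held it 3 times. Over the 35116 promoters of the table, 18.5% held ACGTG and 32.2% held GCGTG. The nuclear receptor core AGGTCA stood in 12.1% of promoters and its direct repeat with a spacer of 1 base, the PPAR element, in 6 (0.0171%). Searched on both strands, neither was found in a member, which says only that these letters are not in this window.

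ANGPTL4 was well above vehicle at the high dose of 6 of the 7 replicated extracts and below it with Polygalae Radix. In the vehicle libraries it was at 16.3, 11.8 and 13.6 CPM. In bulk RNA of this kind, fewer cells and less RNA per cell cannot be told apart. With Aucklandiae Radix at 160 µg/mL it was at 273 and 291 CPM, the top of all groups, and with Menthae Herba at 500 µg/mL at 128, 111 and 185. None of these libraries came near vehicle, and the fitted changes were 20.3-fold (log2 4.34, SE 0.25, n = 2) and 10.2-fold (log2 3.35, SE 0.23, n = 3). Without the tilted libraries, replicate 3 of this group among them, the Menthae Herba change was 3.10 on the log2 scale.

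Among the formulas, Guibi-tang held ANGPTL4 at 61.9, 62.0 and 63.4 CPM at the high dose, 4.49 times vehicle. Saengmaek-san held it at 52.6, 39.2 and 42.2 CPM (3.21 times vehicle) and Soyo-san at 35.6 and 38.03 (2.65 times). The single Okbyeongpung-san library at 500 µg/mL was at 145 CPM, within the range of the Menthae Herba libraries, but it is one of the tilted libraries. With Saposhnikoviae Radix the high dose gave 21.2, 52.1 and 22.7 CPM, all above vehicle and spread widely. Replicate 2, the most tilted library, decided the size there: the log2 change was 1.20 with it and 0.66 without it.

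Polygalae Radix stood alone in direction. ANGPTL4 was at 5.92 and 5.58 CPM at 30 µg/mL and at 8.06 and 7.14 at 6 µg/mL, both below every vehicle library, and at 12.4 and 13.2 at 1.2 µg/mL, inside the vehicle range. The high dose was 2.41-fold below vehicle (log2 -1.27, SE 0.26). A graded series also appeared with Aucklandiae Radix, in the opposite direction, at 15.6 ± 1.45 CPM (SD, n = 2) with the low, 39.9 ± 2.37 with the medium and 282 ± 12.9 with the high dose. With Menthae Herba the medium dose was at 17.6 ± 0.28 CPM (SD, n = 3), just above the highest vehicle library. Below the high dose the other extracts stayed close to vehicle, with group means from 10.7 to 17.8 CPM.

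In the order of the 25 groups, Aucklandiae Radix high came first, followed by Okbyeongpung-san, Menthae Herba, Guibi-tang and Saengmaek-san high, then Aucklandiae Radix medium, Soyo-san high and Saposhnikoviae Radix high. The libraries of Saengmaek-san high and Aucklandiae Radix medium overlapped, and those of Saposhnikoviae Radix high spanned all of Soyo-san high. Vehicle ranked 15 and Polygalae Radix high 25.

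**Figure D1:**
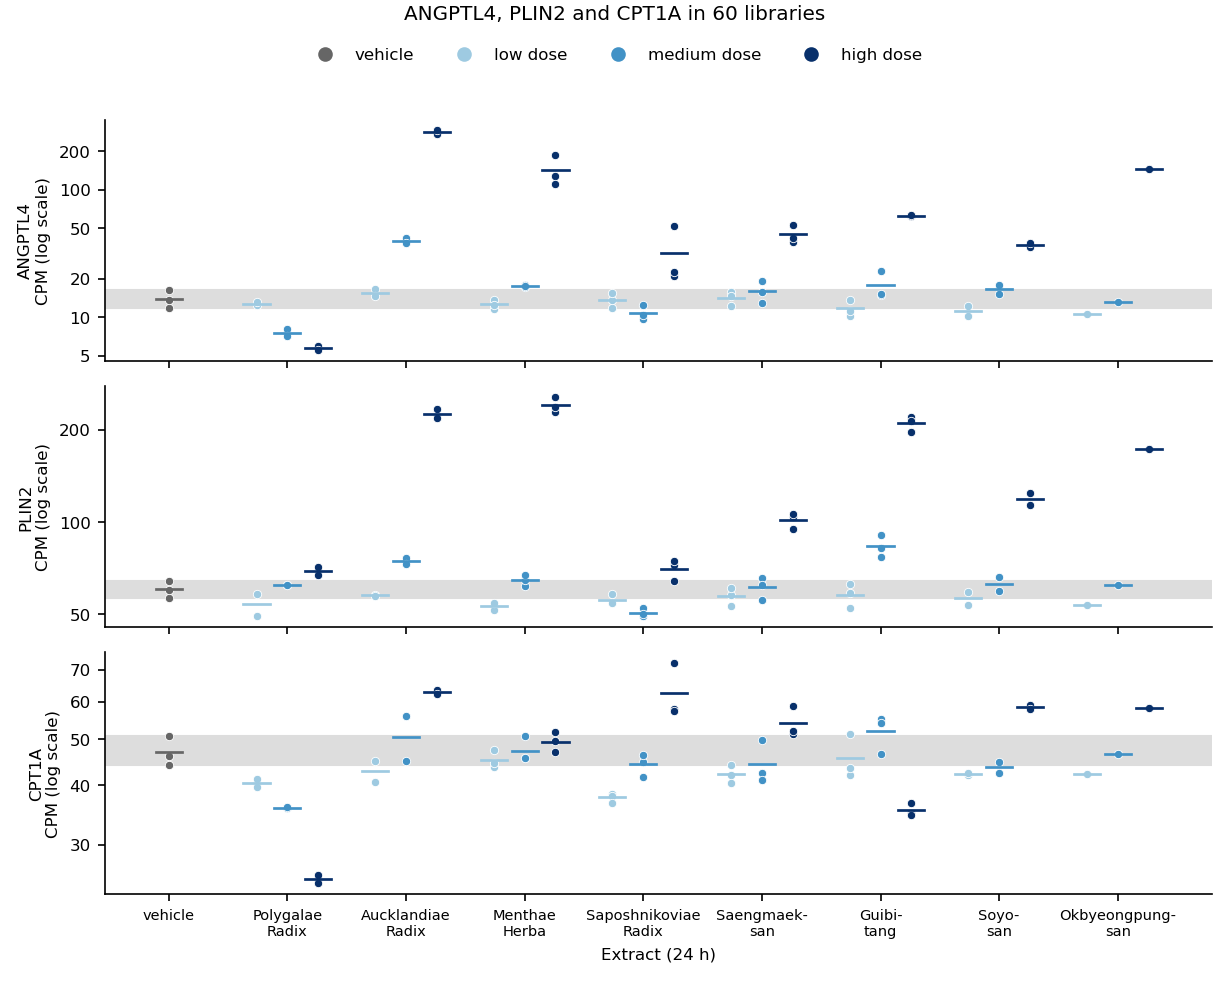
TMM-scaled CPM (log axis) of ANGPTL4, PLIN2 and CPT1A in 60 libraries by extract and dose, with 1 point per library, a line at each group mean and a grey band over the range of the 3 vehicle libraries. ANGPTL4 and PLIN2 leave the band mostly at the high dose, ANGPTL4 lying below it with Polygalae Radix, while CPT1A is lowest with Polygalae Radix and Guibi-tang high.

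PLIN2, the protein that coats lipid droplets in most cells, followed ANGPTL4 with several extracts but not with Polygalae Radix. Vehicle libraries were at 64.4, 56.3 and 60.1 CPM. At the high dose PLIN2 was at 229, 237 and 256 CPM with Menthae Herba, 219 and 233 with Aucklandiae Radix, and 219.8, 214 and 197 with Guibi-tang. These groups lay far above vehicle, at 4.00, 3.75 and 3.49 times its level (log2 2.00, 1.91 and 1.80, SE 0.08 to 0.09). The libraries of Aucklandiae Radix overlapped both neighbours in this order, and those of Menthae Herba and Guibi-tang did not overlap.

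Lower but separate levels followed, with Soyo-san high at 114 and 124 CPM (1.98 times vehicle) and Saengmaek-san high at 104, 95.02 and 107 (1.69 times). Okbyeongpung-san high was at 174 CPM in its 1 library. Saposhnikoviae Radix high, at 72.6, 64.0 and 74.3 CPM, overlapped vehicle, and here the tilted replicate 2 was the lowest. Polygalae Radix high was at 71.4 and 67.3 CPM, slightly above the vehicle libraries, in the extract with the lowest ANGPTL4. At the medium dose PLIN2 was above the vehicle range with Guibi-tang (82.3, 90.6 and 77.0 CPM) and Aucklandiae Radix (76.5 and 72.7 CPM).

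CPT1A, which encodes the rate-limiting acyltransferase of the outer mitochondrial membrane, varied far less. It was at 46.2, 44.1 and 50.8 CPM in vehicle. The highest groups were Aucklandiae Radix high at 63.3 and 62.4 CPM and Saposhnikoviae Radix high at 58.0, 72.2 and 57.4, 1.34 and 1.33 times vehicle, and their libraries overlapped. Soyo-san high was at 59.1 and 58.0 CPM and Saengmaek-san high at 58.9, 51.4 and 52.2, also above every vehicle library. Menthae Herba high was at 51.7, 49.6 and 47.1 CPM and overlapped vehicle, while the same libraries held PLIN2 at 4.00 times the vehicle level.

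With 2 extracts CPT1A lay below vehicle. Polygalae Radix gave 24.98 and 25.97 CPM at the high dose, 1.85-fold below vehicle, and 35.9 and 36.0 at the medium dose. Guibi-tang gave 35.0, 34.7 and 36.7 CPM at the high dose, 1.33-fold below, although the same libraries held PLIN2 at 3.49 times the vehicle level. Low doses of Polygalae Radix, Saposhnikoviae Radix, Saengmaek-san, Soyo-san and Okbyeongpung-san (1 library) also lay below every vehicle library, Saengmaek-san by a margin too small to show at this rounding, with means from 37.8 to 42.2 CPM. High against low dose, within a set, gave log2 changes of CPT1A from -0.67 (Polygalae Radix) to 0.73 (Saposhnikoviae Radix, 0.59 without the tilted libraries).

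Over these 3 genes and 7 extracts, 10 of the 21 changes at the high dose were 2-fold or more, of which ANGPTL4 gave 7, PLIN2 gave 3 and CPT1A none. The share over all genes and the same 7 comparisons was 14.5%. Since these values chose the genes, nothing is read from that contrast.

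**Figure D2:**
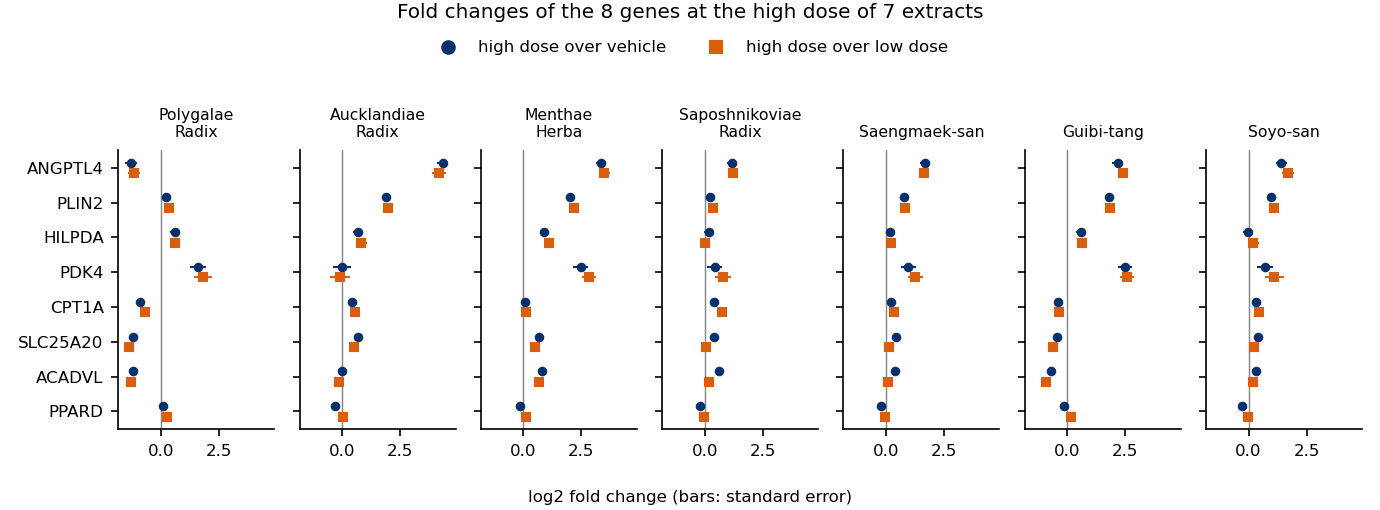
Log2 fold changes of the 8 genes at the high dose of 7 extracts against vehicle (blue circles) and against the low dose of the same extract (orange squares), with bars of 1 standard error. ANGPTL4 spans -1.27 to 4.34 against vehicle, and SLC25A20, ACADVL and CPT1A lie below 0 with Polygalae Radix and Guibi-tang.

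The 5 tested genes changed often at the high dose. They were chosen with earlier results of these data known, so the counts describe these genes and are not independent evidence. Against vehicle, 23 of their 35 comparisons were called at adjusted p under 0.05 by edgeR's quasi-likelihood test with Benjamini-Hochberg adjustment, 15 higher and 8 lower, where 26.7% of all genes were called over the same comparisons (13.1% higher and 13.6% lower). From low to high dose 16 of 35 were called, 12 higher and 4 lower, against 20.5% of all genes (9.18% and 11.3%). Without the tilted libraries the counts were 24 and 17, but the share over all genes moved too. In that fit 6188 of 19097 genes were called with Saengmaek-san high against vehicle, where the main fit called 8.87% higher and 8.54% lower. With Saposhnikoviae Radix high it was 926, where the main fit called 8.61% higher and 4.05% lower. Comparisons with vehicle share the same 3 libraries, so they are not independent of each other.

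PDK4, the kinase that switches off pyruvate dehydrogenase, rose with 4 extracts and fell with none. Vehicle libraries were at 0.866, 0.852 and 0.976 CPM, and its rounded counts ran from 8 to 219 over all libraries, so small differences were not detectable at this depth. Guibi-tang high reached 5.69, 5.18 and 4.41 CPM and Menthae Herba high 5.15, 6.62 and 3.10, all far above vehicle. The fitted changes were 5.65-fold (log2 2.50, SE 0.31, adjusted p = 9.84e-09) and 5.52-fold (log2 2.47, SE 0.31, adjusted p = 9.33e-08).

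Polygalae Radix, the extract with the lowest ANGPTL4, raised PDK4 to 2.81 and 2.58 CPM (log2 1.59, SE 0.34, adjusted p = 0.000172). Saengmaek-san high, at 1.79, 1.73 and 1.76 CPM, was called against vehicle (log2 0.97, adjusted p = 0.0324), but leaving out any 1 of its own or the vehicle libraries ended the call, with adjusted p up to 0.1. Its rise from the low dose was 1.27 (adjusted p = 0.00985), which was lost without low replicate 1 (adjusted p = 0.0523) or low replicate 2 (adjusted p = 0.0743). Aucklandiae Radix, with the highest ANGPTL4 of all, had PDK4 at 1.15 and 0.646 CPM, on both sides of vehicle, a difference of 0.00 with a 95% interval from -0.78 to 0.79. From low to high dose PDK4 rose by 2.83 with Menthae Herba, 2.57 with Guibi-tang and 1.82 with Polygalae Radix on the log2 scale (adjusted p = 9.92e-09, 4.36e-09 and 0.000184).

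HILPDA, the droplet protein that restrains lipolysis, rose with the same number of extracts, 4, by smaller amounts. It was at 11.1, 9.33 and 9.42 CPM in vehicle. Menthae Herba high was at 15.8, 16.05 and 23.3 CPM (log2 0.89, SE 0.19, adjusted p = 0.000443), Aucklandiae Radix high at 15.4 and 16.1 (0.66, adjusted p = 0.0115), Polygalae Radix high at 14.8 and 15.9 (0.62, adjusted p = 0.0119) and Guibi-tang high at 15.4, 14.5 and 14.5 (0.57, adjusted p = 0.01). All of these libraries were above vehicle, and the top Menthae Herba value was the tilted replicate 3; the change was 0.67 without the tilted libraries.

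The calls with 2 libraries a group were not steady for HILPDA. Against vehicle, that of Polygalae Radix was lost without high replicate 3 (adjusted p = 0.0718) and that of Aucklandiae Radix without high replicate 3 (adjusted p = 0.078). From low to high dose HILPDA rose by 1.10 with Menthae Herba, 0.83 with Aucklandiae Radix, 0.63 with Guibi-tang and 0.61 with Polygalae Radix. Leaving out any 1 of the 4 Polygalae Radix libraries ended that last call, with adjusted p up to 0.107, and the Aucklandiae Radix call was lost without low replicate 2 (adjusted p = 0.0552). With Saposhnikoviae Radix the tilted replicate 2 was at 17.5 CPM beside 8.55 and 7.76. The high against low difference of 0.03 became -0.42 without it (adjusted p = 0.0475).

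ACADVL, the first dehydrogenase of very long chain acyl-CoA oxidation, went in opposite directions with different extracts. Vehicle was at 265, 231 and 244 CPM. Polygalae Radix high fell to 124 and 91.4 CPM (log2 -1.20, SE 0.19, adjusted p = 1.54e-06) and Guibi-tang high to 135, 150 and 164 (log2 -0.72, SE 0.17, adjusted p = 0.000336), with no library in the vehicle range. Both fell from low to high dose too, by 1.28 and 0.93 (adjusted p = 1.8e-06 and 9.44e-06). Menthae Herba high rose to 375, 385 and 524 CPM (log2 0.80, adjusted p = 0.000326). Without replicate 3 the rise from its low dose was 0.50 and no longer called (adjusted p = 0.0625), against 0.67 with it, and with only these groups fitted the call was lost too (adjusted p = 0.0522).

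The remaining ACADVL call depended on 1 library. Saposhnikoviae Radix high had 288, 583 and 274 CPM (log2 0.63, adjusted p = 0.0124). Without replicate 2 the change was 0.19 (adjusted p = 0.524), and the call was also lost without vehicle replicate 2 or 3. It was lost too with only these groups fitted (adjusted p = 0.717), a fit in which 0 of 15963 genes were called. With Saengmaek-san and Soyo-san the ACADVL differences of 0.40 and 0.32 were not called (adjusted p = 0.0845 and 0.458), but were without the tilted libraries (adjusted p = 0.000884 and 0.0392). The Okbyeongpung-san library at the high dose, also tilted, was at 546 CPM against 280 and 272 at its medium and low doses. A high ACADVL level accompanied the lean toward short transcripts in each of these libraries, and its part in the result was not tested.

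SLC25A20, the carrier that exchanges acylcarnitine across the inner mitochondrial membrane, was called in all 7 comparisons with vehicle, 5 higher and 2 lower. It was at 14.9, 15.2 and 16.4 CPM in vehicle. Polygalae Radix high fell to 6.36 and 7.34 CPM (log2 -1.18, SE 0.12, adjusted p = 1.42e-10) and Guibi-tang high to 11.2, 12.9 and 10.3 (log2 -0.44, SE 0.10, adjusted p = 0.000551). These 2 extracts also lowered it from low to high dose, by 1.38 and 0.64 (adjusted p = 1.7e-11 and 2.17e-06).

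Not all rises of SLC25A20 against vehicle were also seen from low to high dose. Aucklandiae Radix high at 21.6 and 28.5 CPM and Menthae Herba high at 22.2, 23.1 and 29.9 rose against vehicle (log2 0.69 each, adjusted p = 5.67e-06 and 2.21e-06) and against their low doses (0.51 and 0.50, adjusted p = 0.00216 and 0.000427). The Aucklandiae Radix rise from the low dose was 0.28 without high replicate 3 (adjusted p = 0.194) and was also lost without low replicate 3 (adjusted p = 0.0541). That of Menthae Herba was lost with only these groups fitted (adjusted p = 0.105). With Saengmaek-san, Saposhnikoviae Radix and Soyo-san the calls against vehicle (0.43, 0.42 and 0.39) were not matched within the set, where high and low dose differed by 0.14, 0.04 and 0.23 (adjusted p = 0.543, 0.947 and 1). Vehicle ranked 21 of the 25 groups for this gene. The call of Soyo-san (adjusted p = 0.0493) was lost without any 1 of the vehicle libraries. Its change was 0.47 or 0.32 with 1 of its own libraries left out. That of Saposhnikoviae Radix was lost without high replicate 2 (adjusted p = 0.104) or without a count filter (adjusted p = 0.0544). It was lost too with only its own and the vehicle libraries fitted (adjusted p = 0.717), where 0 of 15963 genes were called.

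PPARD, the receptor itself, showed little change that followed the dose. Against vehicle, at 132, 129.5 and 127 CPM, it was called lower at the high dose with Aucklandiae Radix (105 and 106 CPM, log2 -0.30, adjusted p = 0.00212), Saposhnikoviae Radix, Saengmaek-san and Soyo-san (log2 -0.21, -0.21 and -0.27). The Aucklandiae Radix call was lost without a count filter (adjusted p = 0.0913). The last 3 calls had adjusted p of 0.0395, 0.0268 and 0.0417 and were lost in most fits without 1 of the libraries compared, with adjusted p up to 0.16, 0.105 and 0.476. Vehicle ranked 2 of 25 groups, and low doses of 3 extracts were called lower as well. Within sets, from low to high dose, PPARD was called only with Polygalae Radix, where it rose by 0.25 (adjusted p = 0.0118). That call was lost without high replicate 2 (0.11, adjusted p = 0.402), without low replicate 3 (adjusted p = 0.092), without a count filter (adjusted p = 0.172) and with only these groups fitted (adjusted p = 0.0794). With Guibi-tang the PPARD difference of 0.14 (adjusted p = 0.0785) was called with RLE scaling (adjusted p = 0.0429), without the tilted libraries (adjusted p = 0.0403) and by DESeq2 (adjusted p = 0.0207). In the other 6 extracts the high against low difference lay between -0.04 and 0.14.

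**Figure D3:**
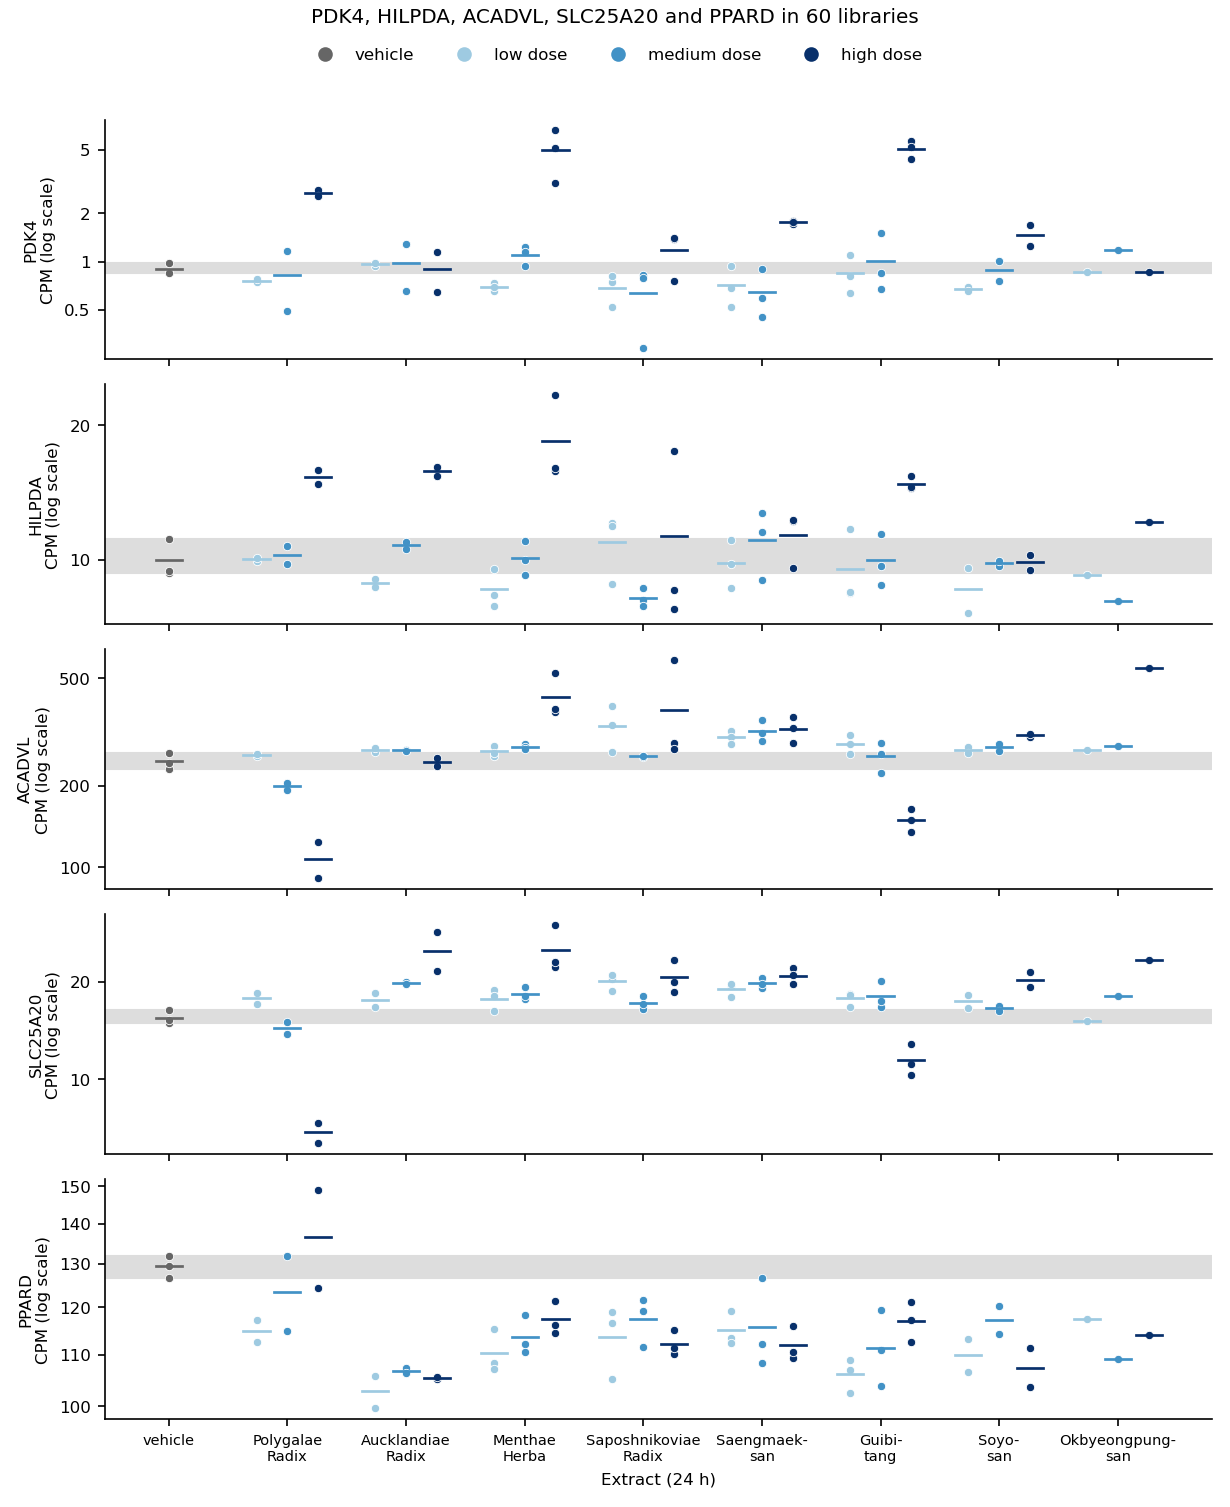
TMM-scaled CPM (log axes of different span) of the 5 tested genes in 60 libraries, drawn as for ANGPTL4. PDK4 and HILPDA are raised at several high doses, SLC25A20 and ACADVL are lowest with Polygalae Radix and Guibi-tang high, and the PPARD vehicle band lies above most groups.

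Extracts of 1 library set could be compared directly at 500 µg/mL. Over the 5 tested genes and 2 pairs, 5 of 10 comparisons were called, against 32.8% of all genes. PDK4 was 4.11-fold higher with Menthae Herba than with Saposhnikoviae Radix (log2 2.04, SE 0.30, adjusted p = 2.48e-06), with no overlap of libraries. HILPDA was 1.65-fold higher there (adjusted p = 0.00574), although the tilted Saposhnikoviae Radix library lay among the Menthae Herba values. Both calls were lost when only these 2 groups were fitted, a fit in which 0 of 16209 genes were called. For ACADVL, SLC25A20 and PPARD this pair differed by 0.17, 0.28 and 0.07 with 95% intervals from -0.17 to 0.50, 0.07 to 0.48 and -0.07 to 0.20, and none was called.

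The 2 formulas differed more. Guibi-tang had 2.89-fold more PDK4 than Saengmaek-san (log2 1.53, SE 0.29, adjusted p = 2.33e-05). It had 2.18-fold less ACADVL (log2 -1.12, SE 0.17, adjusted p = 3.41e-07) and 1.82-fold less SLC25A20 (log2 -0.87, SE 0.10, adjusted p = 3.66e-09). HILPDA, at 0.38 (adjusted p = 0.0815), and PPARD, at 0.06 (adjusted p = 0.446), were not called. For the described genes Guibi-tang was 1.40 times Saengmaek-san in ANGPTL4, 2.06 times in PLIN2 and 0.656 times in CPT1A.

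Few tested genes were called below the high dose. At the medium dose 3 of 35 comparisons with vehicle were called, where 3.14% of all genes were: PPARD was lower with Aucklandiae Radix and Guibi-tang (log2 -0.28 and -0.22, adjusted p = 0.0267 and 0.0428) and SLC25A20 higher with Saengmaek-san (0.36, adjusted p = 0.0394). At the low dose 4 of 35 were called, where 3.90% of all genes were. PPARD was lower with Aucklandiae Radix, Guibi-tang and Saposhnikoviae Radix (log2 -0.33, -0.29 and -0.19, adjusted p = 0.0299, 0.0177 and 0.0499), and SLC25A20 was higher with Saposhnikoviae Radix (0.37, adjusted p = 0.0155). All of these compare a set with the vehicle set. Leaving out vehicle replicate 1 or 2 brought both counts to 0. With vehicle replicate 3 left out they were 0 and 1, and without Saposhnikoviae Radix low replicate 3 the low-dose count was 2.

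Okbyeongpung-san had 1 library per dose and was tested over its 3 doses together. ACADVL was the 1 tested gene called, higher by 0.49 on the log2 scale (adjusted p = 0.044), where 11.5% of all genes were called. Without the tilted high-dose library no tested gene was called, and the same held without any 1 vehicle library. Without the low-dose library 3 were called. Its single high-dose library had ANGPTL4 and PLIN2 at 145 and 174 CPM, against 13.2 and 62.3 at the medium and 10.7 and 53.6 at the low dose, and PDK4 at 0.867 CPM, inside the vehicle range.

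Across the 25 group means of log2 CPM, ANGPTL4 and PLIN2 were the most alike pair (Pearson r = 0.907, Spearman rho = 0.80), followed by ACADVL and SLC25A20 (r = 0.883) and CPT1A and SLC25A20 (r = 0.84). HILPDA was closest to PLIN2 (r = 0.797) and then to PDK4 (r = 0.708). PDK4 and ANGPTL4 were less alike (r = 0.391), and PPARD ran against SLC25A20 and CPT1A (r = -0.663 and -0.603). These are descriptions over groups that share library sets and, for 1 extract, a dose series.

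Of all other named genes, the closest to ANGPTL4 over the 25 groups were AKR1C1 (r = 0.941), SQOR, GK, LARP6 and WIPI1 (r = 0.89). AKR1C1 averaged 21.5 CPM in vehicle, 114 with Aucklandiae Radix high and 11.4 with Polygalae Radix high; it has near-identical relatives, so its counts are uncertain. GK, glycerol kinase, was at 29.6 CPM in vehicle and 77.6 with Aucklandiae Radix high. WIPI1, an autophagy protein, was also the closest to PLIN2 (r = 0.914), before DIRAS1, STPG1, TPBG and TRIM27 (r = 0.87). The closest to CPT1A were VPS35 (r = 0.841), NQO1, PGD, PEX6 and PSMD14 (r = 0.83), and NQO1 stood at 164 CPM in vehicle, 277 with Menthae Herba high and 56.5 with Polygalae Radix high.

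The wider fatty acid pathway split the extracts into those that lowered it and those that did not. Its lists, too, were chosen with earlier results of these data known. Over 8 lists with 97 tested genes, none of them one of the 8 genes above, Polygalae Radix high had 10 higher and 55 lower (22.4% and 25.6% of all genes) and Guibi-tang high 9 higher and 52 lower (23.6% and 26.6%). Their median log2 changes were -0.67 and -0.56, against 0.03 over all genes. The high-dose libraries of these 2 extracts also leaned most toward long transcripts. Their slopes on transcript length ran from 0.058 to 0.077, where no other library was above 0.023. The part of that lean in the result was not tested. Aucklandiae Radix had 18 higher and 21 lower (15.7% and 17.0% of all genes), Menthae Herba 21 and 15 (11.1% and 11.7%), Saengmaek-san 11 and 11 (8.87% and 8.54%), Saposhnikoviae Radix 8 and 3 (8.61% and 4.05%) and Soyo-san 2 and 0 (1.62% and 1.29%). In those 5 extracts the list median lay between -0.09 and 0.05. The list results with Menthae Herba and Saposhnikoviae Radix include a tilted high-dose library, and lists were not counted by extract without it. Against the low dose the counts were 9 and 51 for Polygalae Radix (20.8% and 25.2% of all genes) and 14 and 52 for Guibi-tang (23.8% and 27.4%), and the medians -0.56 and -0.50. In the same 2 high-dose comparisons with vehicle, 5 of 6 tested markers of astrocytoma and mesenchymal-like glia were also lower, as were 4 of 6 with Menthae Herba, 2 of 6 each with Aucklandiae Radix and Saengmaek-san, 1 of 6 with Saposhnikoviae Radix and none with Soyo-san. None of the 6 was higher in any of the 7. The summed level of that list ran from 1780 to 9564 CPM over the high-dose libraries against 8927 to 9051 in vehicle. Its part in the result was not tested.

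**Figure D4:**
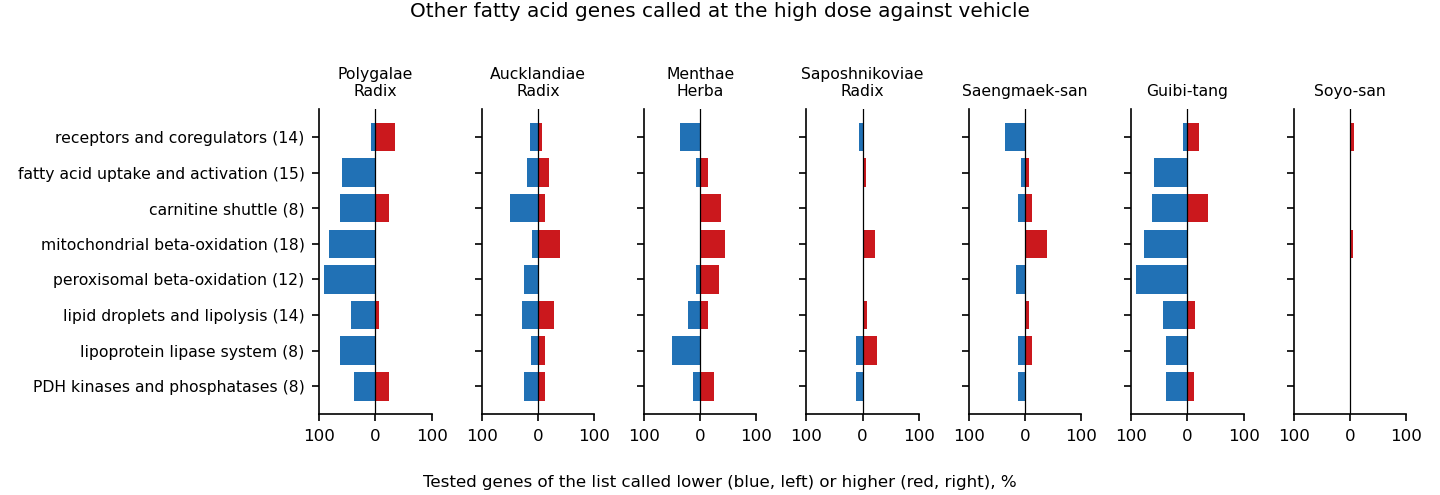
Share of the tested genes of 8 fatty acid lists (number tested in brackets) called lower (blue, to the left) or higher (red, to the right) at the high dose of 7 extracts against vehicle. With Polygalae Radix and Guibi-tang 11 of 12 peroxisomal genes and 15 and 14 of 18 mitochondrial genes were lower, while Menthae Herba had 8 of 18 mitochondrial genes higher.

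Oxidation enzymes carried the largest changes. Of 18 mitochondrial genes, 15 fell and none rose with Polygalae Radix high, and 14 fell and none rose with Guibi-tang high. Over all genes 25.6% and 26.6% fell. HADHA and HADHB, the subunits of the trifunctional protein, went from 162 and 69.0 CPM in vehicle to 33.8 and 16.8 with Polygalae Radix (log2 -2.26 and -2.03, adjusted p = 3.73e-23 and 6.73e-20) and to 44.5 and 24.7 with Guibi-tang (log2 -1.86 and -1.48). ECHS1, the short chain enoyl-CoA hydratase, fell by 1.93 with Polygalae Radix (adjusted p = 4.49e-07). The same list had 8 higher and none lower with Menthae Herba, 7 and none with Saengmaek-san, and 7 higher and 2 lower with Aucklandiae Radix. The shares of all genes higher and lower were 11.1% and 11.7%, 8.87% and 8.54%, and 15.7% and 17.0%. HADHA rose there by 0.40, 0.22 and 0.37. From low to high dose, within the set, the counts were 5 higher and none lower with Menthae Herba and none called with Saengmaek-san. With Aucklandiae Radix they were 3 higher and 1 lower. The list medians were 0.31, 0.12 and -0.05 in that order. With RLE scaling, 3015, 1127 and 4706 of all 19366 genes were called in the same comparisons. The Aucklandiae Radix count was near that share.

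Peroxisomal oxidation genes fell in 11 of 12 cases with Polygalae Radix and in 11 of 12 with Guibi-tang, and none rose with either. Over all genes 25.6% and 26.6% fell. CAT, the catalase that removes peroxide in these organelles, fell from 34.3 to 7.05 CPM with Polygalae Radix (log2 -2.28, adjusted p = 1.59e-16) and to 11.3 with Guibi-tang. HSD17B4, the bifunctional enzyme, fell by 2.10 (adjusted p = 3.43e-20) and ECH1 by 1.83 (adjusted p = 8.47e-09) with Polygalae Radix. With Menthae Herba 4 of the 12 were higher and 1 lower (11.1% and 11.7% of all genes), ECH1 rising by 0.96. ECH1 averaged 80.0 CPM in that group with an SD of 18.8 (n = 3), and replicate 3 there is tilted.

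In the carnitine shuttle, 5 of 8 genes fell and 2 rose with Polygalae Radix (25.6% and 22.4% of all genes). With Guibi-tang 5 fell and 3 rose (26.6% and 23.6%). ACACB, which makes the malonyl-CoA that holds CPT1 in check, fell by 1.59 with Guibi-tang (10.4 to 3.47 CPM, adjusted p = 2.27e-07) and also with Polygalae Radix (-1.40), Aucklandiae Radix (-1.43) and Saengmaek-san (-1.07). CPT1C, a relative of CPT1A found mainly in brain, fell by 1.42 with Guibi-tang (adjusted p = 1.33e-13), and CROT, the peroxisomal octanoyltransferase, by 1.44 with Polygalae Radix (adjusted p = 2.05e-10). Among 15 genes of uptake and activation 9 fell with each of Polygalae Radix and Guibi-tang (25.6% and 26.6% of all genes) and none rose. ACSL5, ACSL4 and ACSF2, which couple fatty acids to coenzyme A, fell by 1.39, 1.19 and 1.09 with Polygalae Radix.

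Droplet and lipolysis genes were mixed, also where PLIN2 was high. Of 14, 6 fell and 1 rose with Polygalae Radix (25.6% and 22.4% of all genes), and 6 fell and 2 rose with Guibi-tang (26.6% and 23.6%). With Aucklandiae Radix 4 fell and 4 rose (17.0% and 15.7%), and with Menthae Herba 3 fell and 2 rose (11.7% and 11.1%). PLIN3, another droplet coat protein, went from 109 CPM in vehicle to 26.8 with Polygalae Radix (log2 -2.02, adjusted p = 2.84e-11) and 32.0 with Guibi-tang (log2 -1.77), and was at 105 with Menthae Herba. PNPLA2, which encodes the lipase ATGL, fell by 1.08 with Guibi-tang (adjusted p = 5.48e-08), and LIPE, hormone-sensitive lipase, by 1.19 with Aucklandiae Radix (adjusted p = 1.51e-06). PNPLA2 averaged 93.5 CPM in vehicle, 44.1 with Guibi-tang high and 45.1 with Polygalae Radix high.

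For the lipoprotein lipase system, on which ANGPTL4 acts, LPL itself was at only 0.76 CPM in vehicle and at most 1.41 in any library. Of the 8 tested genes 5 fell with Polygalae Radix, 4 with Menthae Herba and 3 with Guibi-tang, and none rose with these. Over all genes 25.6%, 11.7% and 26.6% fell. LIPG, endothelial lipase, fell by 1.83 with Polygalae Radix (adjusted p = 1.02e-10) and by 1.13 with Menthae Herba. SEL1L, part of the machinery that matures lipoprotein lipase, fell by 1.36 with Polygalae Radix (adjusted p = 0.00353). SDC1, a heparan sulfate proteoglycan, rose by 1.22 with Aucklandiae Radix (108 to 251 CPM, adjusted p = 1.41e-11) and fell by 0.84 with Menthae Herba.

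The other pyruvate dehydrogenase kinases did not all go with PDK4. PDK1 rose with Menthae Herba by 1.03 (27.6 to 56.3 CPM, adjusted p = 5.53e-06) and with Aucklandiae Radix by 0.57. PDK2 fell by 1.14 with Guibi-tang (adjusted p = 1.5e-10), in which PDK4 rose 5.65-fold, and PDK3 fell by 1.01 with Aucklandiae Radix (adjusted p = 7.41e-09). PDK2 averaged 22.1 CPM in vehicle, 10.0 with Guibi-tang, 12.0 with Aucklandiae Radix and 13.2 with Polygalae Radix high. PDK3 averaged 14.5, 8.09, 7.19 and 9.43 CPM in the same order. Among 14 receptors and coregulators, 5 rose and 1 fell with Polygalae Radix (22.4% and 25.6% of all genes). None rose and 5 fell with Menthae Herba (11.1% and 11.7% of all genes), and the same counts were found with Saengmaek-san (8.87% and 8.54%). Guibi-tang had 3 higher and 1 lower (23.6% and 26.6%) and Aucklandiae Radix 1 and 2 (15.7% and 17.0%). Saposhnikoviae Radix had 0 and 1 (8.61% and 4.05%) and Soyo-san 1 and 0 (1.62% and 1.29%). PPARG rose by 0.68 with Guibi-tang (20.1 to 32.3 CPM, adjusted p = 9.15e-10). This was not particular to Guibi-tang, as PPARG averaged 28.0 CPM with Polygalae Radix high, 28.2 with Aucklandiae Radix and 27.2 with Soyo-san. The 1 Okbyeongpung-san library was at 33.9. With Menthae Herba, Saposhnikoviae Radix and Saengmaek-san the means were 19.4, 20.2 and 22.5. NCOA1, a coactivator, rose by 0.61 with Polygalae Radix (adjusted p = 0.0192).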

How the data were processed

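Per the labels' protocols, directional messenger RNA libraries were sequenced with paired ends, and the submitters dropped libraries made from low amounts of RNA. The deposited values are expected counts per gene, made by the authors without normalization and not whole in 9.62% of values. Per the submitters' processing notes the tools were RSEM 1.3.3, FastQC 0.11.9, STAR 2.7.3a and Trim Galore 0.6.5 on build GRCh38, with no roles given; the annotation and strand setting are not given in the sources used here.

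Expected counts were rounded, filtered with filterByExpr (minimum count 10, total 15), scaled by TMM and fitted in 1 edgeR 4.0.16 quasi-likelihood model (R 4.3.3) of 60 libraries with a mean for each of 25 groups (35 residual degrees of freedom). Tests were two-sided, adjusted by Benjamini-Hochberg over 19366 genes, with calls at adjusted p under 0.05. Fold changes and SE come from that fit, levels are TMM-scaled CPM, and list counts cover tested genes only. Symbols covered 67.9% of identifiers, and lengths for the slopes covered 99.2% of tested genes (GENCODE). The fit was run on counts simulated with no library-set effect and no tilt, for Menthae Herba and Soyo-san high against vehicle. That run cannot speak to sets or tilt. No replicate pair agreed within counting noise.

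Members and lists were chosen with earlier results of these data known, and the motifs, the 2-fold count and the slope limit of -0.15 after values were seen. Named list genes are up to 3 per list (2 per comparator list in the closing section) with the largest change at a high dose, called with the same sign against vehicle and against the low dose, at a mean level of 2 log2 CPM or more and with no library in the vehicle range. A gene that this rule names is not reported here. The genes most like ANGPTL4, PLIN2 and CPT1A are the 5 with the highest r over group means. Alternatives were RLE scaling, no filter, replicate blocks, DESeq2 1.42.0, fits of only the groups compared, no tilted libraries, 1 library left out, and, added after seeing the data, Okbyeongpung-san as 1 group.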

Additional observations from a re-analysis of the deposited data

Results flagged for a closer look

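Extracts of 1 library set differed in 4 of the tested genes at the high dose, PDK4 in both pairs and HILPDA, ACADVL and SLC25A20 in 1 each. By edgeR's quasi-likelihood test of the difference at 500 µg/mL, Menthae Herba exceeded Saposhnikoviae Radix in PDK4 by 2.04 (adjusted p = 2.48e-06) and in HILPDA by 0.72 on the log2 scale (adjusted p = 0.00574). Both of these calls were lost when only the 2 groups compared were fitted, where 0 of 16209 genes were called. Guibi-tang exceeded Saengmaek-san in PDK4 by 1.53 (adjusted p = 2.33e-05). It was below Saengmaek-san in ACADVL, by -1.12 (adjusted p = 3.41e-07), and in SLC25A20, by -0.87 (adjusted p = 3.66e-09).

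In other cases every library of one extract lay above all vehicle libraries and every library of the other below them, and this opposition was not tested as such. Saengmaek-san high exceeded Guibi-tang high by 0.61 in CPT1A, by 1.12 in ACADVL and by 0.87 in SLC25A20, the last 2 being the differences tested above. Polygalae Radix high, at 30 µg/mL, was below Aucklandiae Radix high, at 160 µg/mL, by -5.61 in ANGPTL4, -1.30 in CPT1A and -1.87 in SLC25A20. Those doses differ, so the values stand side by side only.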

How the results depend on the processing

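Calls of the 5 tested genes at the high dose ranged from 16 to 24 against vehicle (23 as reported) and from 13 to 17 against the low dose (16) over the settings that keep or drop whole sets of libraries or genes. Leaving out 1 library gave 17 to 23 and 14 to 18. Calls over all genes moved with the setting too. With Polygalae Radix high against vehicle they were 8088 of 38007 without a count filter and 11136 of 16732 with only the groups compared. Calls of the fatty acid lists ranged from 197 to 252 against vehicle (236 as reported) and 179 to 217 against the low dose (191) when 1 library was left out, those of the comparator lists from 113 to 131 (127), those between extracts of 1 set from 4 to 7 (5), and the 2-fold changes of ANGPTL4, PLIN2 and CPT1A from 9 to 11 (10). Medium-dose libraries were not left out in turn.

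Counts of few calls were unsteady, and calls over all genes moved with the same settings. With Saengmaek-san medium against vehicle, 182 of 38007 genes were called without a count filter and 5182 of 19097 without the tilted libraries. DESeq2 called 1362 of 19366 there, and the fit of only the groups compared called 3634 of 16060. The counts below are therefore not a result on the 5 genes alone. At the medium dose (3 as reported) they were 0 without a count filter, 6 without the tilted libraries, 5 by DESeq2, 9 with only the groups compared and 0 to 3 with 1 library left out. At the low dose (4) they were 0, 8 and 7 under the first 3 of these and 0 to 5 with 1 library left out. For Okbyeongpung-san (1) they were 2 by RLE scaling, 0 without a filter, 2 with the replicate block, 0 without the tilted library, 2 by DESeq2, 3 with only the groups compared and 0 to 3 with 1 library left out. HILPDA with Saposhnikoviae Radix, 0.03 from low to high dose, was -0.42 to 0.25 with 1 of its libraries left out, the lowest without high replicate 2. The cause was not tested.

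Whether replicate numbers pair the samples is not settled. Deviations were taken from means of few libraries and mirror each other in groups of 2, so their correlations cannot exclude pairing. Same-numbered deviations correlated above 0.1 in 2 of 18 pairs against vehicle (-0.175 to 0.147) and 5 of 18 from low to high dose (-0.636 to 0.627). With the replicate block the tested genes gave 23 and 16 calls, 16 with the set replicate block, and the fatty acid lists 237 and 192, or 186 with the set replicate block. The low-dose count was 5. Depth limits PDK4 most, with as few as 8 counts in a library.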

Other observations

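Other programmes that share some of the 8 genes as targets moved too with some extracts, in lists of 16 hypoxia, 13 integrated stress response and 8 glucocorticoid target genes. The shares of all genes called higher and lower were 11.1% and 11.7% with Menthae Herba high and 15.7% and 17.0% with Aucklandiae Radix. They were 22.4% and 25.6% with Polygalae Radix, and 23.6% and 26.6% with Guibi-tang. With Saposhnikoviae Radix they were 8.61% and 4.05%, with Saengmaek-san 8.87% and 8.54%, and with Soyo-san 1.62% and 1.29%. Of the hypoxia genes 11 rose and 1 fell with Menthae Herba, and 8 rose and 1 fell with Aucklandiae Radix. With Polygalae Radix 1 rose and 12 fell, and with Guibi-tang 2 rose and 10 fell. Few were called with Saposhnikoviae Radix (0 higher and 2 lower), Saengmaek-san (2 and 1) and Soyo-san (2 and 1). CA9, carbonic anhydrase 9, went from 38.1 CPM in vehicle to 3.35 with Polygalae Radix (log2 -3.50, adjusted p = 3.66e-11) and 7.70 with Guibi-tang. With Menthae Herba CA9 averaged 72.2 CPM (SD 23.8, n = 3, 1 library tilted). ALDOC, aldolase C, fell by 3.54 with Polygalae Radix and rose by 1.57 with Menthae Herba.

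Of the stress response genes 9 rose and none fell with Menthae Herba and with Aucklandiae Radix each. With Polygalae Radix 3 rose and 6 fell and with Guibi-tang 3 rose and 7 fell, where the shares that rose were near those over all genes. Saposhnikoviae Radix had 0 higher and 1 lower, Saengmaek-san 5 and 1, and Soyo-san 2 and 0. CHAC1, a glutathione-degrading enzyme, rose from 7.53 to 56.1 CPM with Menthae Herba (log2 2.90, adjusted p = 1.96e-16) and fell by 1.73 with Polygalae Radix. PHGDH, the first enzyme of serine synthesis, fell with Polygalae Radix (log2 -2.90, adjusted p = 7.71e-14) and Guibi-tang (log2 -2.55), and rose by 1.35 with Menthae Herba. Glucocorticoid targets were mixed. Of the 8, 4 rose and 2 fell with Polygalae Radix, 1 rose and 5 fell with Aucklandiae Radix, and 3 rose and 2 fell with Menthae Herba. Guibi-tang had 2 higher and 2 lower, near the shares over all genes. Saengmaek-san had 2 and 2, Saposhnikoviae Radix 0 and 0, and Soyo-san 0 and 2. DUSP1 rose by 2.05 with Guibi-tang (adjusted p = 3.2e-24). It averaged 43.5 CPM in vehicle, 179 with Guibi-tang, 124 with Aucklandiae Radix, 102 with Polygalae Radix and 68.1 with Menthae Herba high. CRISPLD2 fell by 2.13 with Polygalae Radix (adjusted p = 4.39e-10), 2.12 with Guibi-tang, 1.77 with Menthae Herba and 1.69 with Aucklandiae Radix.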
